A study of Mus musculus with 5 samples.

Results

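The genes described here encode the structural proteins of the extracellular matrix, namely collagens, laminins, nidogens, elastin, fibulins, fibrillins, thrombospondins, SPARC proteins and small proteoglycans, together with the lysyl oxidases and lysyl hydroxylases that modify collagen. Members were taken by gene symbol, with no value of theirs in the rule, although the group itself was proposed with earlier results of these data known. Of the 13410 genes named by a probe on the array 76 matched, and 55 of these were measured on 4 or 5 of the 5 arrays and so could be tested, out of 9727 such genes in the whole table. Lung RNA of 5 C3H mice (an inbred strain) given ovalbumin sensitisation and challenge, called ova mice, was hybridised on 5 2-colour arrays, 1 per mouse, against 1 pool of lung RNA from control C3H mice. Ovalbumin, from egg white, is a common allergen for inducing an asthma-like airway disease in mice. All RNA was amplified before labelling, and the labels give neither the age, the dose and days of challenge, nor the number of mice in the pool. The question set by the design is which genes differ between the challenged and the control lung.

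Fibrillar collagens (types I, II, III, V, XI, XXIV and XXVII) form the cross-striated fibres that give airway walls and vessels their tensile strength. Basement membranes are thin sheets under epithelium and endothelium, built from type IV collagen and laminin networks joined by nidogens, with type XV and XVIII collagens at their edge. Elastic fibres, made of elastin on a fibrillin scaffold with fibulins, give the lung its recoil. Lysyl hydroxylases modify collagen chains inside the cell, and lysyl oxidases cross-link collagen and elastin outside it.

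The deposited value is a log ratio whose numerator and log base are not stated. Among genes typical of allergic airways, large values below 0 were found for the macrophage and epithelial gene Retnla (-4.79 ± 0.30, SD, n = 5) and the goblet cell gene Clca1 (-4.33 ± 0.40), but no dye is given, so each gene is described as negative or positive in this ratio and no direction of change is stated. Base 2 was taken. Values are means over mice after centring each array on its median, with SD and n = 5 unless another n is given. A gene is called negative or positive if limma's moderated test against 0 gave an adjusted p below 0.05 (Benjamini-Hochberg, over all 9727 genes). That test holds the spread among ova mice but not among control mice, which were pooled. With no dye given, it also cannot separate an effect of the dyes at a probe from a difference between the lungs. In whole lung, fewer cells of a type and less RNA per cell cannot be told apart.

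Of the 55 tested matrix genes, 9 were called negative, 14 were called positive and 32 were not called. Thus 41.8% of the members were called, where 27.3% of all genes were, a comparison for which no p is given because the members were proposed with results known. Negative calls made up 16.4% of members and 15% of all genes, and positive calls 25.5% and 12.3%. Differences were moderate in size: 7 members (12.7%) had a mean beyond 0.5 in either direction, compared with 6.29% of all genes, and none reached 1. The member median was 0.05 and that of all genes 0.00. In 26 members (47.3%) every measured mouse lay to 1 side of 0, as in 40.1% of all genes. Without mouse 3 the calls fell to 4 negative and 9 positive members, and without mouse 5 likewise to 4 and 9. Of the 23 called members, 12 kept the call in each alternative that tested them against 0: Col1a1, Col5a2, Col6a1 and Col6a2 as negative, and Nid1, Plod2, Col13a1, Col17a1, Fbln1, Fbln5, Fbn2 and Bgn as positive. The leading members on the negative side were fibril-forming collagens, their cross-linking enzyme Lox and 2 type VI collagen chains, and those on the positive side were Col13a1, Plod2, Nid1 and fibulins.

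**Figure D1:**
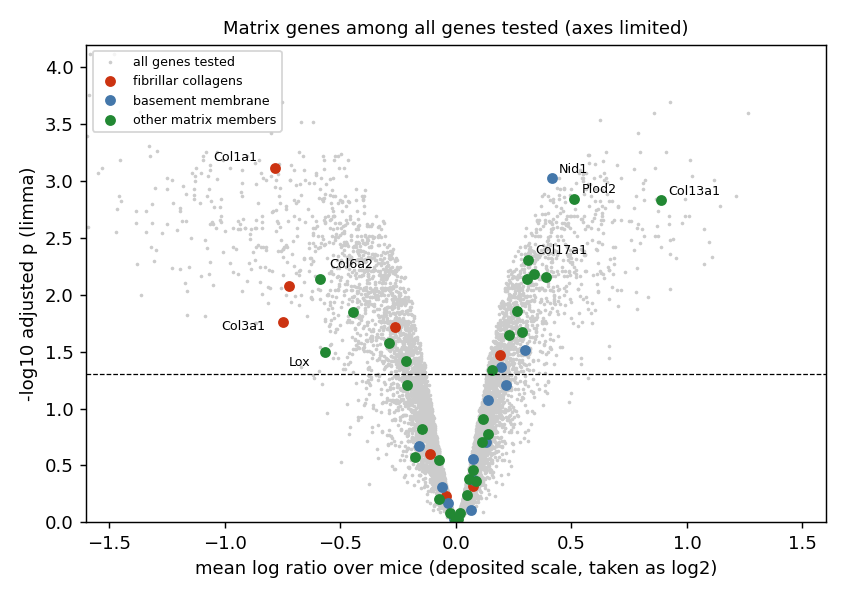
Mean log ratio over the mice (x axis, deposited scale taken as log2) against -log10 of limma's adjusted p (y axis) for all genes tested (grey), fibrillar collagens (red), basement membrane genes (blue) and the other matrix members (green). The dashed line is an adjusted p of 0.05; 36 genes with larger values lie outside the axes and no member does. Members called on the negative side reach -0.78 and those on the positive side 0.89.

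The regions in front of several of these genes are shown next because neighbouring genes and chains of 1 protein fell on the same or on opposite sides. RefSeq sequences of GRCm38.p6 were matched by symbol to 50 of the 76 members, 34 of them tested. Each run below is the 150 bases before the start of transcription, on the gene's own strand and 5′ to 3′. Capitals mark the TATA box motif TATAAA, the upstream box motif CCAAT and the GC box motif GGGCGG, each on either strand. Col3a1 and Col11a2 are fibrillar genes called on the negative side, Nid1 is the basement membrane gene of smallest p, and Col6a1 and Col6a3 encode chains of the same protein with values on opposite sides.
Col3a1, chr1:45311388-45311537, plus strand: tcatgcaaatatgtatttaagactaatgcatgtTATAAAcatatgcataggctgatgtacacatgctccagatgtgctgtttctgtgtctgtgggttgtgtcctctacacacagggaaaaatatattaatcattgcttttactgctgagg
Col11a2, chr17:34038988-34039137, plus strand: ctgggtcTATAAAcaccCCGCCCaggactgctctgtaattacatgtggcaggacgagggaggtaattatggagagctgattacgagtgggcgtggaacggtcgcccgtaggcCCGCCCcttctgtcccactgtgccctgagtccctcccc
Nid1, chr13:13437452-13437601, plus strand: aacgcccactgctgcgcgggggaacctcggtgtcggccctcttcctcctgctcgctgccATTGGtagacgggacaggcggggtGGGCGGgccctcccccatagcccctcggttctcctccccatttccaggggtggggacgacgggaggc
Col6a1, chr10:76726045-76726194, minus strand: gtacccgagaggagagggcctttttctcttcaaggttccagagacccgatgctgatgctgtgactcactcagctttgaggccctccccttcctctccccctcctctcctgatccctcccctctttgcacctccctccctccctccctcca
Col6a3, chr1:90843972-90844121, minus strand: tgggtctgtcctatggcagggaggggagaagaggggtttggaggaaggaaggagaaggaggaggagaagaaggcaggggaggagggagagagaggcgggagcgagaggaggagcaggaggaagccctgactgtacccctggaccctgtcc

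In these windows TATAAA was found for 5 of the 34 tested members with a sequence, among them the 2 fibrillar genes shown, where 7.57% of all 32851 promoter windows of this length hold it. CCAAT was found for 8 of the 34 (24.5% of all windows) and GGGCGG for 19 of the 34 (28.6% of all windows). The units differ: a member counts if any of its windows holds the motif, and the share over all is of single windows. Of the 5 fibrillar genes with a sequence 2 held TATAAA, the 2 shown, and of the 9 basement membrane genes 0 did. CCAAT was held by 1 of the 5 fibrillar and 3 of the 9 basement membrane genes, and GGGCGG by 4 and 5. In Col3a1 and Col11a2 the motif lies nearer the upstream end of the window than the start of transcription. Neither type VI window shown held any of the 3 motifs. These matches describe letters and were not related to the ratios by a test.

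The fibrillar collagens that were called were mainly negative. Of 11 genes 8 were tested, and 4 were called negative (15% of all genes were), 1 was called positive (12.3%) and 3 were not called. Without mouse 3 or mouse 5, 2 were called negative and 0 positive. Col1a1, the main chain of type I collagen, had -0.46, -0.86, -0.91, -0.76 and -0.94 in mice 1 to 5. All mice lay below 0, with mouse 1 nearest to it, and the mean was -0.78 ± 0.20 (limma adjusted p = 0.00077), 1.72-fold if the base is 2. Its partner chain gene Col1a2 had no value on any array. Col3a1, the single chain of type III collagen, which co-assembles with type I in the lung, had 0.05, -1.41, -0.77, -0.60 and -1.01. Mouse 1 alone lay above 0 and mouse 2 lowest; the mean was -0.75 ± 0.54 (limma adjusted p = 0.0175). That call was lost without mouse 3 or mouse 5 (adjusted p between 0.00173 and 0.0673 over 13 alternatives).

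Type V collagen is a minor component on which type I and III fibrils nucleate, and its chains did not lie together. Col5a2 had -0.30, -1.15, -0.58 and -0.85 in mice 1, 2, 3 and 5, with no value in mouse 4. Every measured mouse was below 0, the lowest again being mouse 2, and the mean was -0.72 ± 0.36 (n = 4, limma adjusted p = 0.0084). Col5a1, which encodes the chain present in most type V molecules, had a mean of -0.11 ± 0.17 (limma adjusted p = 0.249). Col5a2 was lower than Col5a1 in all 4 mice that measured both, by 0.61 ± 0.28 on the log scale (exact sign-flip test, two-sided p = 0.125, the smallest 4 mice allow). Every pair given this test was chosen after the values were seen, so its p only describes the mice. Col5a3 gave -0.04 ± 0.05 (n = 4) and was not called.

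The remaining fibrillar genes lay nearer to 0 than Col1a1, Col3a1 and Col5a2. Col11a2, a chain of type XI collagen, had -0.14, -0.06, -0.34, -0.40 and -0.38. All 5 mice were below 0, and the mean of -0.26 ± 0.16 was called (limma adjusted p = 0.0192), but not without mouse 3, 4 or 5 (0.0715 at most). Col2a1, the chain of type II collagen, averaged 0.08 ± 0.19 with mice on both sides. Col27a1, a fibrillar collagen with a shorter helix, was the 1 fibrillar gene called positive, with 0.03, 0.17, 0.23, 0.19 and 0.34 and a mean of 0.19 ± 0.11 (limma adjusted p = 0.034). It lost its call without mouse 2, 3, 4 or 5 (0.0207 to 0.111 over 13 alternatives). Of 5 measured cartilage and bone markers limma called 0 (27.3% of all genes; at an unadjusted p under 0.05 there were 2, both negative), and their median was -0.02.

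Basement membrane genes were positive where called. Of 20 genes 14 were tested, of which 3 were called positive and 11 were not called (without mouse 3, 1 was called positive); limma called 0 negative, and at an unadjusted p under 0.05 also 0. The share called, 21.4%, was below the 27.3% of all genes. Nid1, nidogen-1, which links laminin to type IV collagen, had 0.47, 0.38, 0.38, 0.39 and 0.46. The 5 mice were nearly level, all above 0, giving 0.41 ± 0.05 (limma adjusted p = 0.000941), the smallest SD of the 55 members. Its paralog Nid2 had 0.12, -0.04, -0.03, -0.07 and -0.15, on both sides of 0, with a mean of -0.03 ± 0.10. Nid1 exceeded Nid2 in 5 of 5 mice, by 0.45 ± 0.10 (exact sign-flip test, two-sided p = 0.0625, the smallest 5 mice allow). This pair too was chosen after the values were seen, and its p was 0.167 after Benjamini-Hochberg adjustment over 16 pairs.

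**Figure D2:**
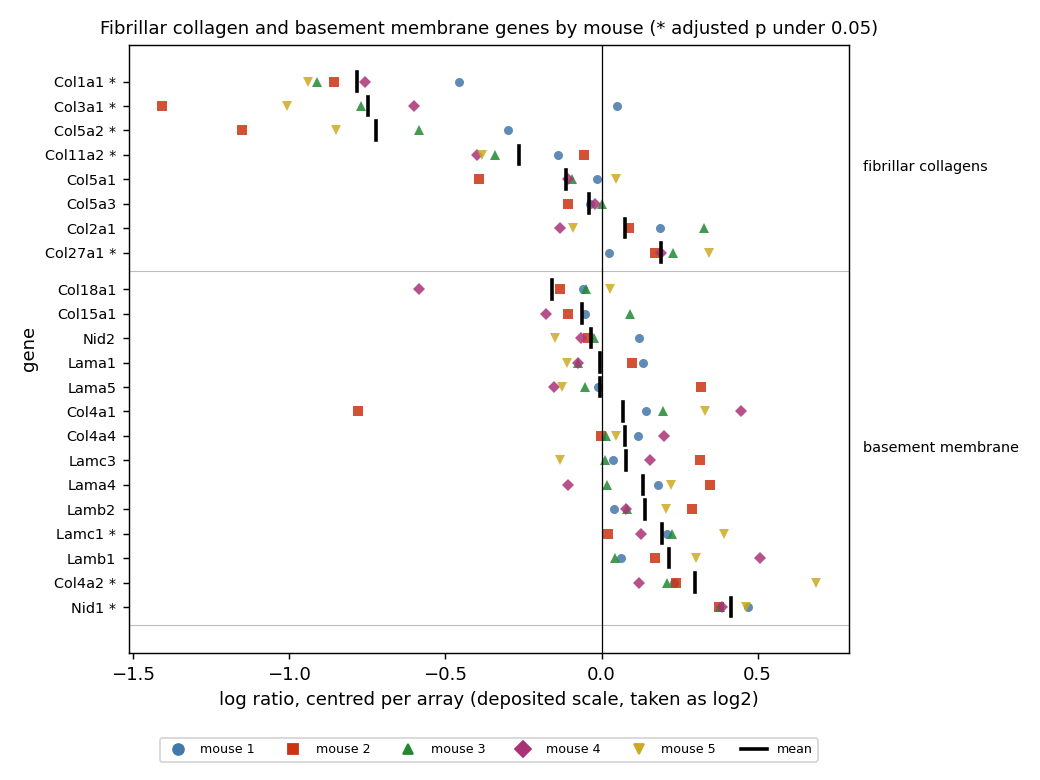
Log ratio of each ova mouse against the control pool (x axis, deposited scale taken as log2, each array centred on its median) for every tested fibrillar collagen and basement membrane gene (y axis). Each symbol is 1 mouse, the black bar is the mean, and an asterisk marks a limma adjusted p under 0.05. Col1a1 lies below 0 in all mice, from -0.94 to -0.46, and Nid1 above 0 in all mice, from 0.38 to 0.47; Col4a1 has 1 mouse at -0.78 and the others above 0.

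The type IV chains of the ordinary basement membrane, Col4a1 and Col4a2, are neighbouring genes transcribed away from each other. In RefSeq their starts overlap by 22 bases, shown because both genes begin there, on the Col4a2 strand with the GC motif in capitals.
Col4a1/Col4a2, chr8:11312805-11312826, plus strand: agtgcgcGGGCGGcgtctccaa
Col4a2 had 0.23, 0.24, 0.21, 0.12 and 0.69, above 0 in every mouse and highest in mouse 5. Its mean of 0.30 ± 0.22 was called (limma adjusted p = 0.0303), except without mouse 2 or mouse 3 (0.0145 to 0.07 over 13 alternatives). Col4a1 had 0.14, -0.78, 0.20, 0.45 and 0.33, so that mouse 2 stood apart from the other 4, and the mean was 0.07 ± 0.49 (limma adjusted p = 0.785). Without mouse 2 its mean was 0.28 and it was called (limma adjusted p = 0.0297, against 0.0297 to 0.997 over 13 alternatives). In mouse 2 Col4a2 exceeded Col4a1 by 1.02, and in the other mice the difference ran from -0.33 to 0.36. The mean difference was 0.23 ± 0.50 (exact sign-flip test, two-sided p = 0.313). Col4a4, a chain of the alveolar and glomerular type IV network, gave 0.08 ± 0.08 and was not called; its probe lies 24 IDs from that of Ccr1 (-1.30). Col4a3, its neighbour and partner, had a value in mouse 4 only.

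Laminins are heterotrimers of an alpha, a beta and a gamma chain. Of 7 tested laminin genes 1 was called, as positive (14.3%, near the 12.3% of all genes). Lamc1, the gamma chain of most laminins, had 0.21, 0.02, 0.23, 0.13 and 0.39, all above 0, and a mean of 0.20 ± 0.14 (limma adjusted p = 0.0433). It lost the call without mouse 1, 3, 4 or 5 (0.131 at most). The beta chains Lamb1 (0.22 ± 0.19, limma adjusted p = 0.0615) and Lamb2 (0.14 ± 0.10, 0.0836) were above 0 in all mice without being called. Lamb1 ranged from 0.04 in mouse 3 to 0.51 in mouse 4, and was called under quantile normalization between arrays (limma adjusted p = 0.043 there, 0.043 to 0.172 over 13 alternatives). None of the 3 alpha chains passed in limma, also at an unadjusted p under 0.05: Lama4, of vascular laminins, averaged 0.13 ± 0.18, and Lama1 (-0.01 ± 0.11) and the epithelial chain gene Lama5 (0.00 ± 0.19) lay on both sides of 0. Lamc3 gave 0.08 ± 0.17. The multiplexins Col15a1 (-0.06 ± 0.11, n = 4) and Col18a1 (-0.16 ± 0.24) had the lowest means of the group and did not pass. Col18a1 lay between -0.13 and 0.03 in 4 mice and at -0.58 in mouse 4.

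Fibrillar and basement membrane genes were compared within each mouse by the medians of their genes. The fibrillar median was -0.03, -0.25, -0.22, -0.13 and -0.38 in mice 1 to 5, and the basement membrane median 0.12, 0.13, 0.03, 0.10 and 0.21. The fibrillar median was the lower in each of the 5 mice, by 0.14 in mouse 1 and by 0.59 in mouse 5 at the extremes. Over mice the fibrillar minus basement membrane difference was -0.32 ± 0.17; with means in place of medians it was -0.40 ± 0.16. No p is given for this difference because the groups were chosen with results of these arrays known. The groups overlapped gene by gene: fibrillar means ran from -0.78 to 0.19 and basement membrane means from -0.16 to 0.41. Only the 4 fibrillar genes called negative lay below every basement membrane gene, while Col5a1, Col5a3, Col2a1 and Col27a1 lay within their range.

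**Figure D3:**
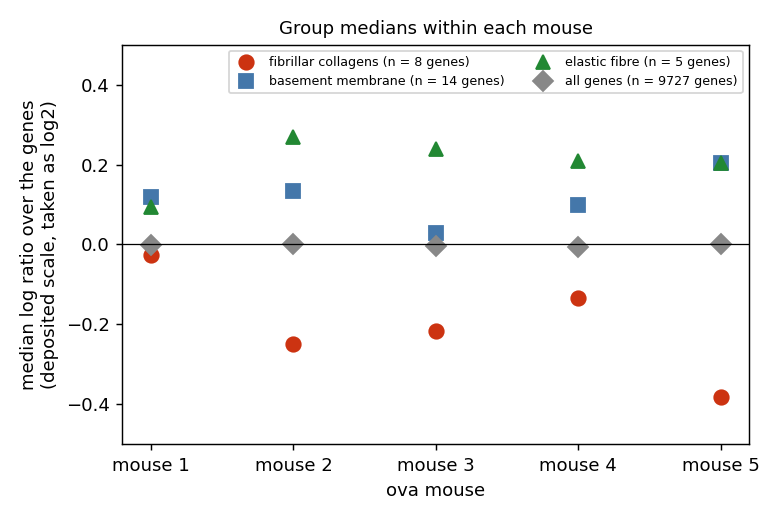
Median log ratio (y axis, deposited scale taken as log2) over the genes of each group within each ova mouse (x axis). Red circles are 8 fibrillar collagens, blue squares 14 basement membrane genes, green triangles 5 elastic fibre genes and grey diamonds all 9727 genes. The fibrillar median is below the basement membrane median in every mouse, least in mouse 1 (-0.03 against 0.12).

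Type VI collagen, a beaded microfibril that sits between fibres and cells, is assembled from alpha-1, alpha-2 and alpha-3 chains, whose genes split. Col6a2 had -0.35, -0.96, -0.35, -0.92 and -0.36, and Col6a1 had -0.33, -0.84, -0.36, -0.61 and -0.10. Both lay below 0 in all mice and lowest in mice 2 and 4, with means of -0.59 ± 0.32 (limma adjusted p = 0.00731) and -0.45 ± 0.29 (0.0142). Col6a3 had 0.17, 0.02, 0.17, 0.17 and 0.25, all above 0. Its mean was 0.15 ± 0.08 (limma adjusted p = 0.0456), and the call was lost without mouse 1, 3, 4 or 5 (0.143 at most). Col6a3 exceeded Col6a1 by 0.60 ± 0.21 and Col6a2 by 0.74 ± 0.27, in 5 of 5 mice each (exact sign-flip test, two-sided p = 0.0625 for both). Both pairs were chosen after the values were seen. Col6a4, which encodes an alpha-3-like chain, gave -0.07 ± 0.08.

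Neighbouring members were compared as well. Among the 76 members, 7 pairs are immediate neighbours among protein-coding genes in GRCm38.p6, and 4 pairs had both genes tested. Col6a1 and Col6a2 are such a pair, while Col6a3 lies on another chromosome. Col3a1 and Col5a2 are another, both on the negative side, with a difference of 0.06 ± 0.28 over the 4 mice that measured both (exact sign-flip test, two-sided p = 0.75). The proteoglycan genes Dcn and Lum are the third pair, both near 0, and Col4a1 and Col4a2 the fourth. In all, 16 pairs of related or neighbouring genes were compared, chosen after the values were seen. In 6 of them the difference had 1 sign in all 5 mice, at the smallest exact p, and after Benjamini-Hochberg adjustment over the 16 pairs the lowest p was 0.167.

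**Figure D4:**
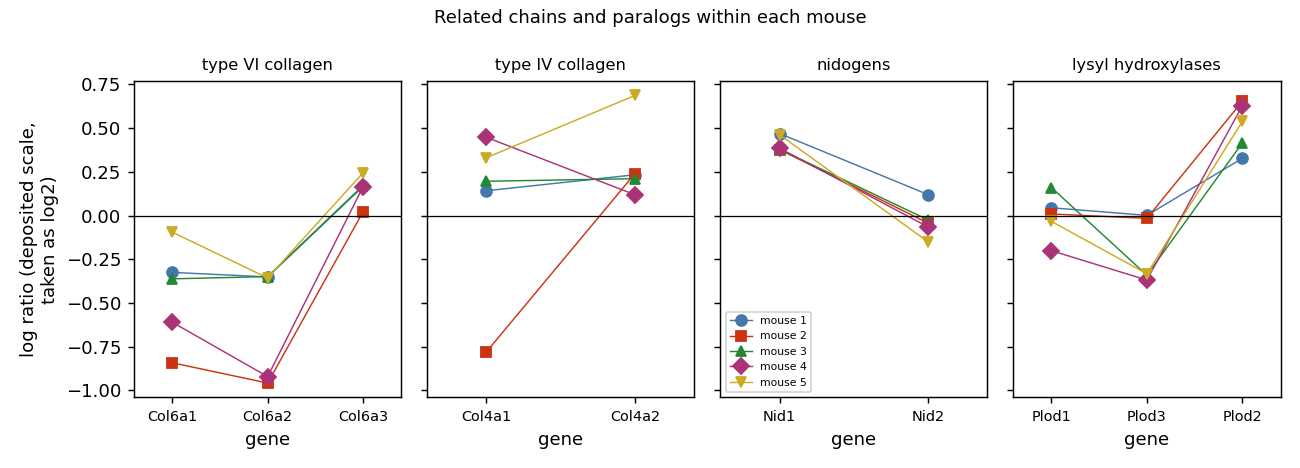
Log ratios (y axis, deposited scale taken as log2) of related genes (x axis), with 1 line and symbol per ova mouse. Col6a3 lies above Col6a1 and Col6a2, Nid1 above Nid2, and Plod2 above Plod1 and Plod3 in all 5 mice, while Col4a1 and Col4a2 differ by 1.02 in mouse 2.

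Of 14 tested collagens outside the fibrillar and basement membrane groups, type VI included, 4 were called positive (28.6%, and 12.3% of all genes) and 2 negative (14.3%, and 15%). Col13a1, a transmembrane collagen of cell adhesion sites, had 0.43, 1.21, 0.77, 0.92 and 1.10. All mice were well above 0 with mouse 1 lowest, and its mean of 0.89 ± 0.31 (limma adjusted p = 0.00148, 1.85-fold if the base is 2) was the largest of all members. Col17a1, the transmembrane collagen of hemidesmosomes in basal epithelium, had 0.25, 0.34, 0.37, 0.16 and 0.43, with a mean of 0.31 ± 0.11 (limma adjusted p = 0.0049). Col23a1, also transmembrane, gave 0.02 ± 0.13 and was not called; its probe lies 6 IDs from that of Arg1 (-3.48), a distance at which means of probes naming different genes had a Pearson r of 0.144 over 7466 pairs, and the part of this in the ratio was not tested. Col9a3, a chain of the fibril-associated type IX collagen, was called at 0.23 ± 0.13 (limma adjusted p = 0.0226) but not without mouse 3, 4 or 5 (0.0786 at most). Its partner Col9a1 gave 0.11 ± 0.14. Col8a1 (0.12 ± 0.09), of vascular matrix, and the fibril-associated Col12a1 (0.14 ± 0.14, n = 4) did not pass. Counting every type, 27 collagen genes were tested and 6 (22.2%) were called in each direction, where 15% of all genes were called negative and 12.3% positive.

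Of 5 tested elastic fibre genes 3 were called positive, where 12.3% of all genes were, and elastin itself was not called. Fbln5, which tethers elastin to cells and microfibrils, had 0.57, 0.53, 0.17, 0.47 and 0.20, all above 0. The mean was 0.39 ± 0.19 (limma adjusted p = 0.00691). Fbln1, found in elastic fibres and basement membranes, had 0.09, 0.42, 0.31, 0.40 and 0.46, lowest in mouse 1 (0.34 ± 0.15, limma adjusted p = 0.00653). Fbn2, a microfibril fibrillin, had 0.12, 0.27, 0.24, 0.21 and 0.49, again with every mouse above 0 (0.26 ± 0.14, limma adjusted p = 0.014). Eln, elastin itself, had 0.04, -0.55, 0.06, -0.07 and 0.15. Mouse 2 alone was far below 0; the mean was -0.07 ± 0.28 (limma adjusted p = 0.623), and 0.05 without mouse 2 (0.596). Fbln7 gave 0.07 ± 0.12.

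The enzymes that modify collagen lay on both sides. Lox, lysyl oxidase, had 0.08, -1.26, -0.63, -0.53 and -0.51. Mouse 1 was above 0 and mouse 2 lowest, the same order at both ends as for Col3a1; the mean was -0.57 ± 0.48 (limma adjusted p = 0.0317), a call lost without mouse 2, 3, 4 or 5 (0.00539 to 0.0975 over 13 alternatives). Loxl2, a related oxidase with a role in type IV networks, was called at -0.22 ± 0.11 (n = 4, limma adjusted p = 0.0384). It lost that call without mouse 1, 2, 3 or 5 (0.12 at most), and its probe lies 6 IDs from that of Muc4 (-1.07); whether this adds to the ratio was not tested. Loxl4 gave 0.06 ± 0.09 and Loxl1, which is needed for elastic fibres, lay at 0.00 ± 0.14. Plod2, the lysyl hydroxylase of collagen telopeptides, had 0.33, 0.65, 0.42, 0.63 and 0.54. All mice were above 0 and it kept its call in every alternative that tested against 0 (0.51 ± 0.14, limma adjusted p = 0.00143). Plod3 lay near 0 in mice 1 and 2 and between -0.37 and -0.33 in mice 3 to 5 (-0.21 ± 0.19, limma adjusted p = 0.0619). It was called without mouse 1 and with arrays weighted (0.0351 to 0.182 over 13 alternatives). The 2 probes of Plod1 gave 0.10 and -0.11 and the gene 0.00 ± 0.13. Plod2 exceeded Plod1 by 0.52 ± 0.25 and Plod3 by 0.72 ± 0.25, in 5 of 5 mice each.

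Of 4 tested adhesive glycoproteins 1 was called positive and 1 negative, and of 3 small proteoglycans 1 was called positive (27.3% of all genes were called). Sparc, a collagen-binding matricellular protein, had 0.19, 0.36, 0.01, 0.42 and 0.45, all above 0 (0.29 ± 0.18, limma adjusted p = 0.0211). Its paralog Sparcl1 had -0.03, -0.29, -0.15, -0.52 and -0.46, all below 0 (-0.29 ± 0.20, limma adjusted p = 0.0263). The 2 genes thus lay on opposite sides in every mouse, 0.58 ± 0.37 apart; Sparc lost its call without mouse 2, 4 or 5 and Sparcl1 without mouse 2, 3, 4 or 5 (at most 0.0776 and 0.094). Tnc, tenascin-C, a glycoprotein of remodelling tissue, gave -0.18 ± 0.32 with -0.69 in mouse 2, and Thbs4, a thrombospondin, -0.15 ± 0.18. Bgn, biglycan, had 0.26, 0.12, 0.39, 0.45 and 0.32, all above 0 (0.31 ± 0.13, limma adjusted p = 0.0072). The related proteoglycan genes Dcn (0.01 ± 0.22) and Lum (0.09 ± 0.20), which bind collagen fibrils, had mice on both sides and were not called.

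**Figure D5:**
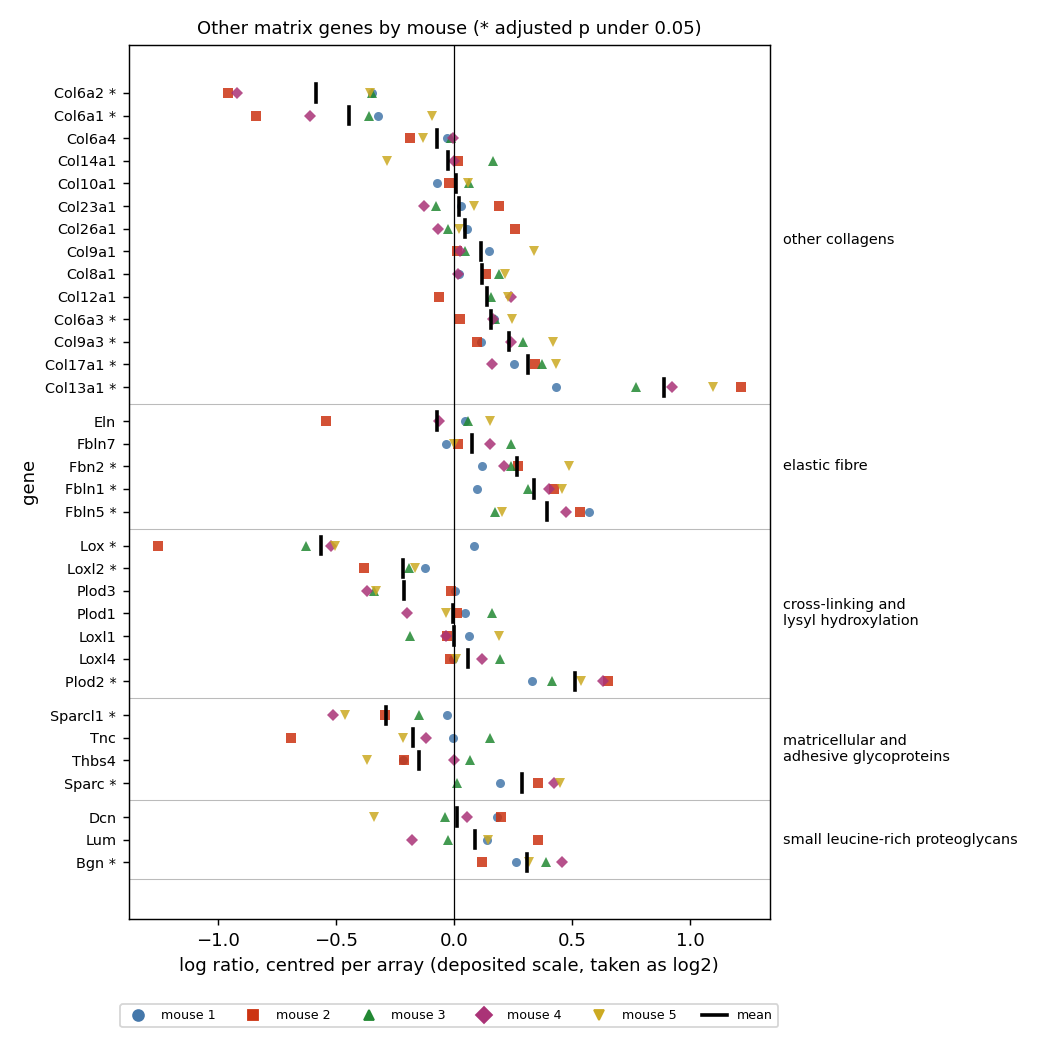
Log ratio of each ova mouse (x axis, deposited scale taken as log2, arrays centred on their medians) for the tested members outside the fibrillar and basement membrane groups (y axis). Each symbol is 1 mouse, the bar is the mean, and an asterisk marks a limma adjusted p under 0.05. Col13a1 lies highest, from 0.43 to 1.21, and the lowest single value is that of Lox in mouse 2 (-1.26).

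The mice differed in how far the members spread. Over the tested members the SD was 0.19 for mouse 1, 0.48 for mouse 2 and from 0.30 to 0.40 for the other 3. As a ratio to the SD over all probes of the same array, mouse 2 stood at 1.40, with the remaining mice from 0.92 to 1.04. Of the 48 members with 5 values, mouse 2 gave the lowest value for 17 and mouse 5 the highest for 16. Of the 7 called on the negative side with 5 values, mouse 2 was lowest in 4 and mouse 1 highest in 4. Without mouse 1, 9 members were called negative and 12 positive.

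Other genes of collagen synthesis and matrix assembly were read as well. Of 11 genes of collagen folding, secretion and processing, 4 (36.4%) were called positive, where 12.3% of all genes were. Limma called 0 negative (15% of all genes), and 1 was negative at an unadjusted p under 0.05. The smallest p were those of Pcolce2 (0.83 ± 0.52, limma adjusted p = 0.0104) and Pcolce (0.29 ± 0.22, 0.0336), enhancers of procollagen C-terminal cleavage, with Tll1 (0.18 ± 0.06, 0.0187), a protease that makes that cut. These lay on the side opposite to Col1a1 and Col3a1. The related protease gene Bmp1 gave -0.01 ± 0.10 and was not called. Tll1 lost its call without mouse 1, 2, 3 or 5, and Pcolce without mouse 3, 4 or 5 (limma adjusted p 0.0627 and 0.0966 at most). Of 9 other elastic fibre and microfibril genes 5 (55.6%) were called positive and 1 (11.1%) negative, where 12.3% and 15% of all genes were. Ltbp4 (1.07 ± 0.46, limma adjusted p = 0.00264), which carries latent TGF-beta and organises elastin with Fbln5, and Mfap4 (0.68 ± 0.35, 0.00532) were on the side of the fibulins. Ltbp1, a related TGF-beta carrier of the matrix, stood at -1.59 ± 0.22 (limma adjusted p = 7.64e-05). Of 27 other proteoglycan and matricellular genes 9 (33.3%) were called positive and 3 (11.1%) negative. Ccn4 (0.54 ± 0.10), Dpt (0.65 ± 0.17) and Ccn5 (0.56 ± 0.15) had the smallest p. Called negative were Tgfbi (-0.75 ± 0.35), Vcan (-0.71 ± 0.42) and Spon2 (-0.32 ± 0.19). Of 19 genes of matrix receptors 4 were called positive (21.1%) and 3 negative (15.8%), where 12.3% and 15% of all genes were. The negative ones were the collagen receptor gene Lair1 (-1.16 ± 0.81, limma adjusted p = 0.015), the hyaluronan receptor gene Cd44 (-0.40 ± 0.31) and the integrin gene Itgav (-0.24 ± 0.09). The smallest p among the positive ones were those of the laminin receptor gene Bcam (0.51 ± 0.22), Cd36 (0.41 ± 0.17) and the syndecan gene Sdc2 (0.32 ± 0.12).

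Cell type markers were read in the same way, and their part in the matrix ratios was not tested. For the counts that follow, 12.3% of all genes were called positive, 15% negative and 27.3% in either direction. Of 7 lung epithelial markers 4 were called positive, among them Sftpc (0.67 ± 0.39), Scgb1a1 (0.70 ± 0.36, n = 4) and Aqp5 (0.51 ± 0.22). The 1 called negative was Sftpd (-0.47 ± 0.36, n = 4), a surfactant gene like Sftpc, and Sftpa1 (-0.05 ± 0.16) was not called. A ratio does not show the level of these genes. Of 11 endothelial markers 10 were called positive, with medians between 0.25 and 0.80 in single mice and the smallest p for Ace (0.82 ± 0.27), Sox18 (0.67 ± 0.26) and Eng (0.64 ± 0.23). Of 11 fibroblast markers 4 were called positive, among them Tcf21 (0.55 ± 0.20) and Meox2 (0.31 ± 0.10), and 1 was called negative, S100a4 (-1.73 ± 0.47), which leukocytes also express. The median of the 11 fibroblast markers ran from 0.095 to 0.29 in single mice, and 6 of the markers were not called. Of 7 smooth muscle markers 2 were called negative, Acta2 (-0.30 ± 0.09) and Cnn1 (-0.29 ± 0.11), with mouse medians from -0.36 to 0.06. Of 7 macrophage markers 4 were called negative, with the smallest p for C1qb (-1.99 ± 0.55), C1qa (-1.64 ± 0.60) and Cd68 (-0.46 ± 0.17), with mouse medians from -0.98 to -0.17. Of 8 heart muscle markers 3 were called positive, Myl4 (0.78 ± 0.53), Myl7 (0.68 ± 0.31) and Ryr2 (0.23 ± 0.08), with mouse medians from -0.11 to 0.36. Of 4 fat markers 2 were called positive, Adipoq (1.11 ± 0.56) and Lep (0.19 ± 0.05, n = 4), with mouse medians from -0.01 to 0.35. Myl4 lost its call without mouse 3 or 5, and Lep without mouse 1, 2, 3 or 5 (limma adjusted p 0.0552 and 0.129 at most).

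The remaining 21 members were not tested. Of these 11 had no value on any array, among them Col1a2, Col7a1, Col11a1, Thbs1 and Thbs2. Just outside the limit of 4 arrays, the 3 members with 3 values were the epithelial laminin chain Lamb3 (0.15, 0.57 and 0.39 in mice 1, 2 and 5), Col16a1 (0.12, 0.15 and 0.19 in the same mice) and Thbs3 (0.15, 0.23 and -0.01 in mice 1, 3 and 4). Just inside it were 7 members with 4 values, of which Col5a2 and Loxl2 were called. The tested members not named so far are Col10a1, Col14a1 and Col26a1, whose means lay between -0.03 and 0.05, and none was called. The 4 values of Col14a1 came from 2 probes, 1 measured in mice 2 and 3 (mean 0.09) and 1 in mice 4 and 5 (-0.14).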

How the data were processed

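Lung RNA of 5 ova mice was hybridised against 1 control pool, 1 two-colour array per mouse. The authors deposited 1 value per probe and array, read here as a log2 ratio from its sign, medians near 0 and a largest size of 5.17, above the log10 range of a 16-bit scanner (4.82). The sources used here give no background correction, normalization, dye or spot brightness, so faint spots were recognised only where blank. Between 11778 and 13320 of 17280 probes had a value per array. Probes were named from the platform annotation (14722 with 1 symbol). Arrays were centred on their medians, probes of a gene averaged, and genes with at least 4 values tested against 0 with limma 3.58.1 in R 4.3.3 (lmFit, eBayes, checked on simulated data). The number of arrays limits the precision. The members, lists and pairs were chosen with earlier results of these data known. Named were all tested fibrillar and basement membrane genes, all other called members, up to 3 uncalled per group, and the 3 called genes of smallest p in each further list. The other 6 tested members and a few further genes were named after their values were seen. Alternatives left out each mouse or changed the centring, filter, probe summary, weights, prior, minimum size (limma's treat at 0.5) and group definition.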

Additional observations from a re-analysis of the deposited data

Results flagged for a closer look

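In 3 of the 55 tested members, 1 mouse lay far from the other 4, with a gap to its nearest neighbour above Dixon's 95% critical value for 5 samples. Chance flags about 1 in 20 such groups. For Col4a1, mouse 2 was at -0.779, where the other mice ran from 0.142 to 0.447. For its neighbour Col4a2, mouse 5 was at 0.687 and the others lay between 0.119 and 0.24. For Col18a1, mouse 4 was at -0.584 and the others lay between -0.132 and 0.028. The 3 values belong to 3 different mice, and the cause was not tested.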

How the results depend on the processing

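Of the 23 called members, 12 kept the call in every alternative that tested against 0 and 11 lost it in at least 1. Of the 32 members not called, 3 (Col4a1, Lamb1 and Plod3) were called in at least 1 alternative. No call reversed, and 29 sign changes had no call on either side. The fibrillar and basement membrane medians over the gene means, and their difference, moved by less than their spread. In the main fit they were -0.19 for fibrillar and 0.08 for basement membrane genes, a difference of -0.26. They are another measure than the medians within each mouse given above. Leaving out each mouse in turn, negative member calls ranged from 4 to 9 and positive ones from 9 to 12. Fibrillar calls ranged from 2 to 4 negative and 0 to 1 positive, and positive basement membrane calls from 1 to 3. Over all genes the range was 928 to 1429 negative and 671 to 1124 positive calls. The lowest member counts, 4 and 9, came without mouse 3 and without mouse 5. Fewer arrays enter these fits. Tested with limma's treat against a minimum size of 0.5, 0 members were called negative and 0 positive, where 1 each had an unadjusted p under 0.05. So 0 fibrillar genes were called in either direction and 0 basement membrane genes positive, against 63 negative and 6 positive calls over all genes. Members with 4 values have no result when all 5 arrays are required. No paired analysis was possible because the arrays form 1 group, each against the same control pool. Spot brightness is not known, so signal over background could not be weighed, and the spread among control mice is not measured.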
